A study of Mus musculus with 2 samples.

Results

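The fatty acid elongases and desaturases of the mouse liver were described in 1 miR-182-5p knockout (KO) library and 1 wild-type (WT) library, as 10 genes of the 34745 that the count table lists. They are the elongases *Elovl1*, *Elovl2*, *Elovl3*, *Elovl5*, *Elovl6* and *Elovl7* and the desaturases *Fads1*, *Fads2*, *Scd1* and *Scd2*. The genes were selected by name as members of the 2 enzyme families, with their counts in these same libraries already known, and *Elovl2* was known to have the lowest KO count relative to WT among them. The values below that compare KO with WT are therefore a description of this pair of libraries, without a test.

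The KO library came from the liver of male mice labelled miRNA-182 KO and the WT library from the liver of male WT mice. According to the study's methods the knockout is carried on a single allele in the whole animal, so that the other allele still makes the miRNA. All mice were 8 to 10 weeks old, and both groups had undergone a partial hepatectomy (PH) in which 70% of the liver was removed. The livers were taken at day 3 after PH, which is stated in the paper and not in the labels, when the remaining lobes of a mouse liver are regrowing. Whether a library was made from 1 mouse or from a pool was not given in the sources used here. The genotypes could not be checked on the miRNA, whose own level was not analysed here. With 1 library per genotype there is no spread between mice to compare a difference with, and every interval given here covers counting error only.

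Elongases catalyse the first step of a cycle in the endoplasmic reticulum that adds carbons from malonyl-CoA to a fatty acyl-CoA, and a ketoreductase, a dehydratase and an enoyl reductase complete it. Desaturases put a double bond into the chain with electrons passed on by cytochrome b5. In the liver the products of de novo lipogenesis are lengthened and desaturated by *Elovl6* and *Scd1* into the oleic acid of stored and secreted fat, while *Fads2*, *Elovl5*, *Fads1* and *Elovl2* act in turn on dietary linoleic and linolenic acid to make the long polyunsaturated chains of membranes. *Elovl1*, *Elovl3* and *Elovl7* work mainly on saturated and monounsaturated chains.

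The sequence of the miRNA that was knocked out, and the places in the 10 genes that can pair with its seed, are shown first because this miRNA defines the genotype that was compared. miR-182-5p (GRCm38.p6 chr6:30165962-30165986, minus strand, from RefSeq) is 25 bases long, and its seed, bases 2 to 8, is in capitals.
mmu-miR-182-5p: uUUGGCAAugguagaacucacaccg
Of the longest 3′ UTR that GENCODE release M21 annotates for each gene, 3 of 10 held a match to the seed. Those of *Elovl2* and *Elovl7* held the 8-base form, which adds an A opposite the first base of the miRNA, and that of *Elovl1* held the 7-base form. In the sites below the matched bases are in capitals.
Elovl2 site: aaatgtgtTTGCCAAAtcataac
Elovl7 site: ggattgttTTGCCAAAgtaagtg
Elovl1 site: aaggggggTTGCCAAgtctagct
The *Elovl2* match began at base 744 of a 3′ UTR of 2913 bases (GRCm38 chr13:41184543-41184550, minus strand). The *Elovl7* match began at base 868 of 3002 (chr13:108283549-108283556, plus strand) and the *Elovl1* match at base 725 of 834 (chr4:118432844-118432850, plus strand). No match to these letters was found in the 3′ UTRs of *Elovl3*, *Elovl5*, *Elovl6*, *Fads1*, *Fads2*, *Scd1* and *Scd2*. Over the 12541 genes with 10 counts or more and an annotated 3′ UTR, 13.4% held the 7-base match and 5.50% the 8-base match, with a median 3′ UTR length of 1309 bases against 2434 for the 10 genes. A match is a description of the sequence, and binding was not measured here.

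Promoters were available in the RefSeq table for 6 of the 10 genes (*Elovl1*, *Elovl2*, *Elovl5*, *Elovl6*, *Elovl7* and *Fads2*), as the 250 bases before and 50 bases after the start of transcription. Those of *Elovl2* and *Elovl6*, which of these 6 genes had the lowest KO levels relative to WT, and that of *Elovl5*, the elongase whose substrates overlap most with those of *Elovl2*, are printed on the strand of the gene (GRCm38.p6). Capitals mark an E-box, spelled CACGTG. They also mark a CCAAT box, read on either strand of the window. A GC box is a run of GGGCGG on either strand and is marked in the same way.
Elovl2 promoter, chr13:41220354-41220653, minus strand: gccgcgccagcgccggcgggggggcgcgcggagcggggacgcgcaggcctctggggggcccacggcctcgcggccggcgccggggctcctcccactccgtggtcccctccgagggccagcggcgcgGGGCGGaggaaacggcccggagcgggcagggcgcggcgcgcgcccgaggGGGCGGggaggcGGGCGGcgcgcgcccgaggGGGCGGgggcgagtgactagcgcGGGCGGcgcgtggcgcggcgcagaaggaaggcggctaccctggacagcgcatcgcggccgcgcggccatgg
Elovl6 promoter, chr3:129532136-129532435, plus strand: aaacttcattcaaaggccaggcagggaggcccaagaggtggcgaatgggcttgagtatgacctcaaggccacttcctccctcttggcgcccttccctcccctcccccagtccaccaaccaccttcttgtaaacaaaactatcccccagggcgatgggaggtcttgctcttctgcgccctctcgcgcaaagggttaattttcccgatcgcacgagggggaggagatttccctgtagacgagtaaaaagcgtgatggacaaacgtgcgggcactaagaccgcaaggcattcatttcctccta
Elovl5 promoter, chr9:77917115-77917414, plus strand: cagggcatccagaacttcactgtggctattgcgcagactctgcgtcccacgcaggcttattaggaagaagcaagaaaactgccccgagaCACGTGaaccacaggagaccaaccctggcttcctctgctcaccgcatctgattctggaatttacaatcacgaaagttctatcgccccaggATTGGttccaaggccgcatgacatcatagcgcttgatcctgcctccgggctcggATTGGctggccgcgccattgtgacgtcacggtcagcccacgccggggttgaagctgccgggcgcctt
*Elovl2* has 2 overlapping entries in the table, of which the one that starts upstream is printed. The printed *Elovl2* promoter was 84.7% G and C, against a median of 52.7% over the 32851 promoters of the table, and held 5 GC boxes between 124 and 21 bases before the start. GC boxes were not particular to *Elovl2*, as the promoters of *Elovl1*, *Elovl7* and *Fads2*, not printed, held them too. These were 70.7% and 59.0% (*Elovl1*), 74.0% (*Elovl7*) and 67.0% (*Fads2*) G and C. The *Elovl5* promoter held 1 E-box, 161 bases before the start, and 2 CCAAT boxes, and the *Elovl6* promoter held none of the motifs searched. Over all promoters 35.7% held a GC box, 37.4% a CCAAT box and 7.15% this E-box. An SREBP element (TCACNCCAC) occurred in 1.24% of all promoters and in none of those of the 6 genes, and direct repeats of AGGTCA spaced by 1 or by 4 bases, the forms bound by PPAR and LXR with RXR, occurred in 0.0396% and 0.0152% and in none of those of the 6 genes. These letters were searched on both strands, and the GC box was added to the search after the first motifs had been counted. The search says nothing of the factors themselves.

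The KO library held 13247497 counts and the WT library 13163348. Genes encoded by mitochondrial DNA, 13 in number, accounted for 51.7% of the counts in KO and 31.0% in WT, so fewer counts were left for nuclear genes in the KO library. Fold changes are therefore given after scaling by the trimmed mean of M-values (TMM), which sets the bulk of genes equal (median log2 fold change of all genes 0.00), and again after scaling by total counts, where the median of all genes was −0.60. The 8 hepatocyte marker genes were all detected. None of them was past 2-fold in either direction with TMM (median −0.16), where 9.94% of all genes were lower and 9.46% higher. With total counts 3 were at least 2-fold lower (median −0.76), against 26.6% of all genes. The highest, *Alb*, had 339876 and 536544 counts in KO and WT. In whole liver, fewer cells of a type and less RNA per cell cannot be told apart.

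Of the 10 genes, 4 were at least 2-fold lower in the KO library (*Elovl2*, *Scd2*, *Scd1* and *Elovl6*) and none at least 2-fold higher, where 9.94% and 9.46% of the 13561 genes whose 2 counts summed to 10 or more were lower or higher by that much. With total counts 8 of the 10 were at least 2-fold lower, all but *Elovl1* and *Elovl3*, against 26.6% of all genes. None was at least 2-fold higher, against 4.60%. Among the 8, *Elovl7* had only 7 counts in KO and 17 in WT, and *Fads2*, at −1.01, lay close to the 2-fold line. All 10 passed the minimum of 10 counts. The members' median log2 fold change was −0.77 with TMM and −1.37 with total counts. With TMM 9 of the 10 were below 0, against 6778 of the 13561 genes. As the genes were chosen with this contrast in view, nothing is read from these counts. The sign of each member's difference was the same under both scalings, while whether *Elovl5*, *Elovl7*, *Fads1* and *Fads2* lie past 2-fold depended on the scaling.

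**Figure D1:**
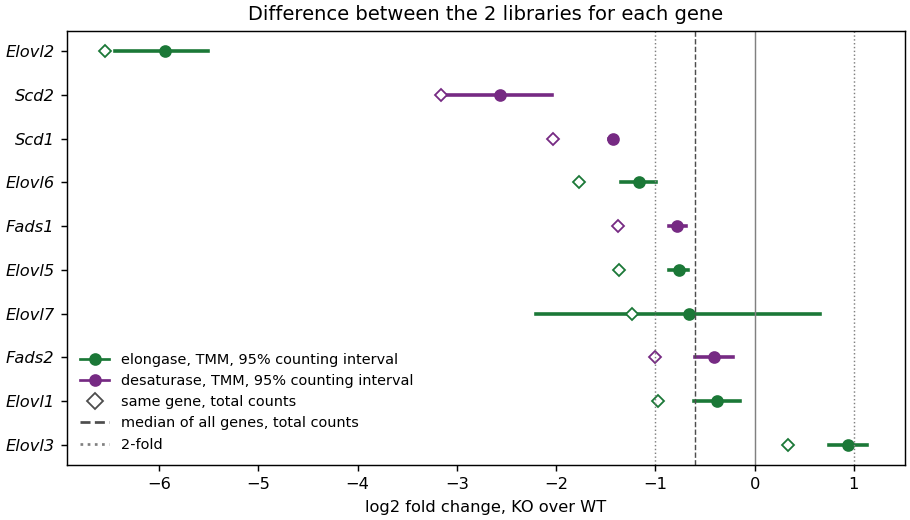
The x axis gives the log2 fold change (KO over WT) of the 6 elongases (green) and the 4 desaturases (purple). Filled points are TMM-scaled values with exact 95% counting intervals, open diamonds the same genes scaled by total counts, the dashed line the median of all genes under total counts (−0.60) and the dotted lines 2-fold. Elovl2 lies at −5.94, apart from the other 9 genes, which lie between −2.56 and 0.94.

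*Elovl2*, which lengthens polyunsaturated chains beyond the reach of *Elovl5* and is required for docosahexaenoic acid synthesis, differed most of the 10 between the libraries. Its KO count was 40 and its WT count 3751, or 0.447 and 42.1 FPKM (fragments per kilobase of gene, scaled to the library total by the authors). The WT library was high and the KO library low but above the floor of 3 counts. The log2 fold change was −5.94 (95% counting interval −6.45 to −5.51), 61.6-fold lower in KO, and −6.54 with total counts. Of the 13561 genes, 17 had a lower log2 fold change. The gene lies on chromosome 13 (chr13:41182495-41220405 in the authors' table), and none of the 51-base words of its longest transcript occurred in a transcript of another gene.

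*Elovl5*, the elongase of shorter polyunsaturated chains, had 1213 counts in KO and 3112 in WT (23.6 and 60.9 FPKM). Its log2 fold change was −0.77 (−0.86 to −0.67), and −1.37 with total counts. The ratio of *Elovl2* to *Elovl5*, which needs no scaling between the libraries, was 0.0189 in KO and 0.692 in WT by FPKM, a log2 change of −5.19 (−5.69 to −4.73). For the desaturases of the same route, the ratio of *Elovl2* to *Fads1* had a log2 change of −5.18 (−5.67 to −4.72). That of *Elovl2* to *Fads2* had −5.55 (−6.08 to −5.06). *Elovl2* was known beforehand to have the lowest KO count relative to WT among the members, so the direction of these ratios was set by the selection. They rest on the same *Elovl2* counts and add no separate evidence.

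*Fads2* catalyses the first desaturation of linoleic and linolenic acid and *Fads1* the later one. *Fads1* had 1525 counts in KO and 3949 in WT (33.3 and 86.8 FPKM), a log2 fold change of −0.78 (−0.87 to −0.69). *Fads2* had 339 and 677 counts (17.0 and 34.1 FPKM), a log2 fold change of −0.41 (−0.60 to −0.22). Both were lower in KO by less than 2-fold with TMM, and both were past 2-fold with total counts, at −1.38 for *Fads1* and −1.01 for *Fads2*. *Fads1* and *Elovl5* kept nearly the same ratio to each other, 1.41 in KO and 1.43 in WT (log2 change −0.01, interval −0.14 to 0.12). The ratio of *Fads1* to *Fads2* was 1.96 in KO and 2.55 in WT (log2 change −0.37, interval −0.58 to −0.16). The 2 genes lie 81385 bases apart on chromosome 19 with *Fads3* beside them, and 0.129% of the 51-base words of the longest *Fads2* transcript occurred in *Fads3*.

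*Scd1*, the main stearoyl-CoA desaturase of adult liver, had 8833 counts in KO and 35900 in WT (138 and 564 FPKM). The log2 fold change was −1.43 (−1.46 to −1.40), 2.70-fold lower in KO, and −2.03 with total counts. *Scd2*, a second stearoyl-CoA desaturase best known from brain and from the liver around birth, had 31 and 279 counts (0.429 and 3.89 FPKM). Its log2 fold change was −2.56 (−3.16 to −2.04), 5.91-fold lower in KO, and −3.16 with total counts. Both desaturases were lower in KO than in WT, and *Scd2* was lower in KO also relative to *Scd1*, with a ratio of 0.00311 in KO and 0.00689 in WT (log2 change −1.15, interval −1.73 to −0.61). *Scd3* had no count in either library and *Scd4* had 0 and 4. The Scd genes lie side by side on chromosome 19 and share sequence: 4.54% of the 51-base words of the longest *Scd1* transcript and 3.89% of those of the longest *Scd2* transcript occurred in other genes, mainly of the cluster. How reads in those stretches were assigned was not given in the sources used here, and the much smaller *Scd2* count is uncertain to that extent.

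*Elovl6* lengthens palmitate, the product of fatty acid synthase, to stearate, the substrate of *Scd1*. It had 347 counts in KO and 1176 in WT (2.37 and 8.08 FPKM). The log2 fold change was −1.17 (−1.35 to −0.99), with the 2-fold line inside the counting interval, and −1.77 with total counts. Relative to *Scd1* the *Elovl6* level was slightly higher in KO, with a log2 change of 0.26 (0.08 to 0.44) in their ratio. Relative to *Elovl5* it was lower, with a log2 change of −0.40 (−0.60 to −0.20). Of the 51-base words of the longest *Elovl6* transcript, 4.31% occurred in other genes.

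*Elovl1*, *Elovl3* and *Elovl7* supply saturated and monounsaturated very long chains for sphingolipids and neutral lipids. *Elovl3* was the only member with a higher level in KO. It had 533 counts in KO and 419 in WT (26.9 and 21.3 FPKM), a log2 fold change of 0.94 (0.75 to 1.13) with TMM and 0.34 with total counts. The 2-fold line lay inside the TMM counting interval. *Elovl1* had 238 and 466 counts (3.38 and 6.67 FPKM), a log2 fold change of −0.38 (−0.61 to −0.15) with TMM and −0.98 with total counts. *Elovl3* and *Elovl1* thus moved apart, their ratio being 7.96 in KO and 3.20 in WT (log2 change 1.32, interval 1.02 to 1.62). The annotated end of *Elovl1* overlaps that of *Cdc20*, a cell division gene on the opposite strand (210 counts in KO, 803 in WT), and since it was not stated whether strand was used in counting, reads from the overlap cannot be told apart. *Elovl7* was near the limit of detection, with 7 counts in KO and 17 in WT (0.0972 and 0.238 FPKM), and no difference was detectable at this depth (log2 fold change −0.66, interval −2.20 to 0.66).

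*Elovl3* is known as a male-biased and rhythmic gene of mouse liver, and several genes of both kinds were past 2-fold in these libraries. Of the 9 output genes of the circadian clock that were examined, 6 were at least 2-fold higher in KO and none lower with TMM, against 9.46% of all genes higher, and 4 were higher with total counts, against 4.60% (median 1.25 and 0.65). Their summed level was 34.0 FPKM in KO and 14.7 in WT, and *Nr1d2*, with the most counts of the list, had 507 in KO and 320 in WT. Of the other 10 male-biased liver genes, 5 were at least 2-fold higher in KO with TMM and 3 with total counts (median 0.95 and 0.34). These are read against the same 9.46% and 4.60% of all genes. None was at least 2-fold lower. With TMM 2 were below 0, *Mup20* (18812 and 35990 counts, −0.34) and *Cyp4a12b* (446 and 678, −0.01). Their summed level was 4558 FPKM in KO and 4673 in WT, and *Serpina1e*, with the most counts, had 60218 and 28206. The operations were done in the early morning according to the study's methods, and the hour at which the livers were taken was not given in the sources used here. The part of these genes in the *Elovl3* value was not tested.

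**Figure D2:**
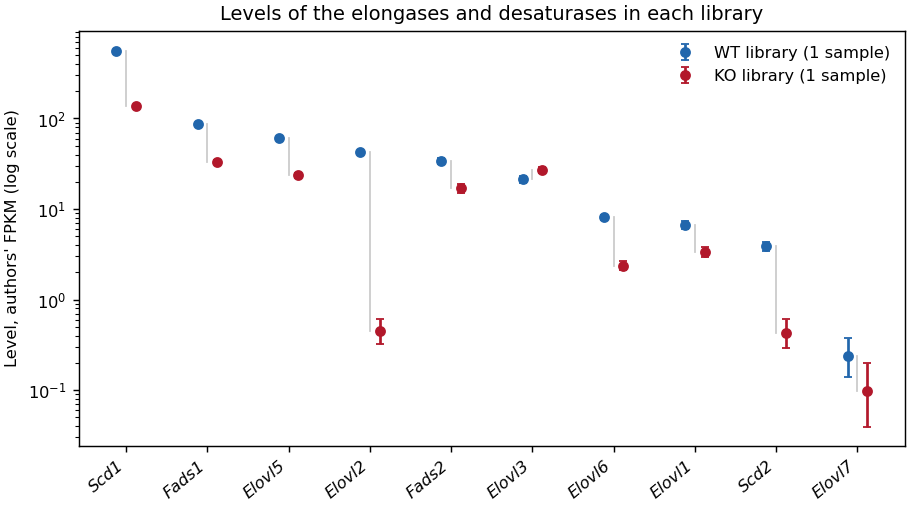
Level of each gene in the WT library (blue) and the KO library (red), in the authors' FPKM on a log axis, with exact 95% Poisson intervals from the counts; genes are ordered by their WT level. Scd1 leads in both libraries (564 and 138 FPKM), Elovl2 goes from 42.1 to 0.447 FPKM, and Elovl3 is higher in KO than in WT.

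Ordered by FPKM within the WT library, the genes ran from *Scd1* through *Fads1*, *Elovl5*, *Elovl2*, *Fads2*, *Elovl3*, *Elovl6*, *Elovl1* and *Scd2* to *Elovl7*, and no 2 neighbours in that order had overlapping counting intervals. In the KO library the order was *Scd1*, *Fads1*, *Elovl3*, *Elovl5*, *Fads2*, *Elovl1*, *Elovl6*, *Elovl2*, *Scd2* and *Elovl7*, where *Elovl3* and *Elovl5*, and *Elovl2* and *Scd2*, did not differ beyond counting error. *Elovl2* was in place 4 in WT and place 8 in KO. The order between genes rests on the gene lengths behind the authors' FPKM, which were 0.458 (*Fads2*) to 1.95 (*Elovl1*) times the summed exon length of the gene in GENCODE M21. With counts per kilobase of those exons, scaled to the library total in the same way as FPKM, *Elovl2* stood second in WT, at 71.9, above *Elovl5* at 67.1 and *Fads1* at 62.3, and in KO it was again in place 8, at 0.761. Differences between the libraries for 1 gene do not depend on its length.

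**Figure D3:**
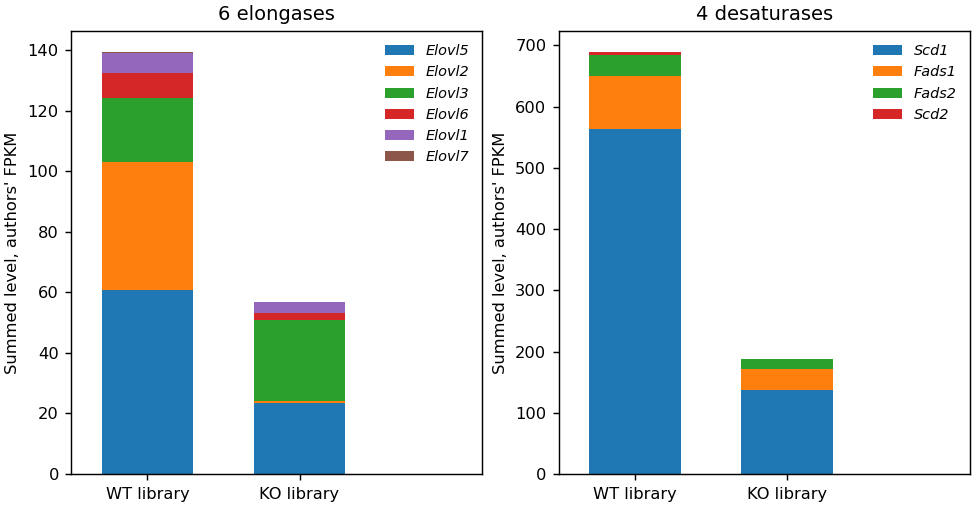
Stacked levels of the 6 elongases (left) and the 4 desaturases (right) in the WT and KO libraries, in summed FPKM of the authors; each colour is 1 gene and the axes start at 0. The elongase sum is 139 in WT and 56.8 in KO, with the Elovl2 band nearly gone in KO, and the desaturase sum is 689 in WT and 189 in KO, most of it Scd1.

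Summed over the 6 elongases, the level was 56.8 FPKM in KO and 139 FPKM in WT, which is 2.45 times higher in WT. *Elovl2* made up 30.2% of the WT sum and 0.786% of the KO sum, and without it the sums were 56.4 and 97.2 FPKM, 1.72 times higher in WT. *Elovl3* made up 15.3% of the elongase sum in WT and 47.4% in KO, and *Elovl5* 43.7% and 41.5%. These shares depend on the gene lengths as well: with the GENCODE exon lengths *Elovl2* made up 39.4% of the WT sum and 1.31% of the KO sum, *Elovl3* 8.84% and 35.2%, and *Elovl5* 36.8% and 44.9%. With either length *Elovl5* and *Elovl2* led the WT sum and *Elovl3* and *Elovl5* the KO sum, but which of the pair came first changed. The 4 desaturases summed to 189 FPKM in KO and 689 FPKM in WT, with *Scd1* at 73.1% and 81.9% of the sum. Without *Scd1* the desaturase sums were 50.7 and 125 FPKM, 2.46 times higher in WT. FPKM were scaled by total counts, mitochondrial genes included. On the TMM scale the log2 fold change of the summed counts was −1.32 for the elongases, −0.56 without *Elovl2*, −1.34 for the desaturases and −0.78 without *Scd1*.

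The genes around the elongases and desaturases were described by 8 lists with 73 genes, of which 66 had at least 10 counts. Of these 6 were at least 2-fold lower in KO and 2 at least 2-fold higher, with a median log2 fold change of −0.29, against 9.94% and 9.46% of all genes and a median of 0.00. With total counts 23 were lower, or 34.8% against 26.6% of all genes, and 1 was higher (median −0.89 against −0.60). The share of lower genes was thus near that of all genes with TMM and above it with total counts. The counts of the single lists below are small and are read against these same shares of all genes.

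**Figure D4:**
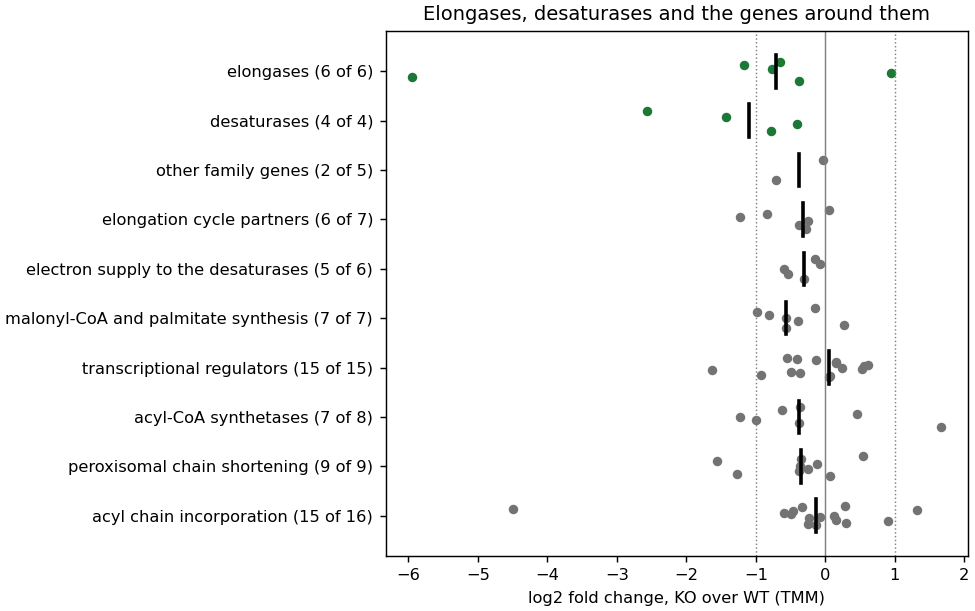
Log2 fold change, KO over WT (TMM), of each gene with at least 10 counts in the 2 families (green) and in the 8 lists of genes around them (grey); black bars are medians, dotted lines mark 2-fold, and the numbers in brackets give the genes shown out of those listed. Most genes of the 8 lists lie between the dotted lines, and the point at −4.50 is a gene with 0 counts in KO and 13 in WT, whose position depends on the prior count.

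The other 3 enzymes of the elongation cycle had 1 of 6 tested genes past 2-fold (median −0.33). That gene was the dehydratase *Hacd4*, at 8 and 29 counts, named here only because it made up the count. *Tecr*, the enoyl reductase and the gene of the list with the most counts, had 1306 in KO and 1893 in WT (log2 fold change 0.06). *Hsd17b12*, the ketoreductase, had 554 and 1494 counts (−0.84), inside the 2-fold line. None of the 5 tested genes that supply the desaturases with electrons was past 2-fold (median −0.31), and *Cyb5a*, cytochrome b5 itself, had 5627 and 10538 counts (−0.31).

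Malonyl-CoA and palmitate, the substrates of elongation, are made by acetyl-CoA carboxylase and fatty acid synthase. None of the 7 genes of this list was past 2-fold with TMM and 4 were lower with total counts (median −0.57, or −1.17 with total counts). *Fasn*, fatty acid synthase, had 920 counts in KO and 2443 in WT (−0.82). Among the 15 transcriptional regulators of lipid synthesis, 1 was past 2-fold, *Mlx*, the partner of ChREBP, with 64 and 300 counts (−1.63, interval −2.05 to −1.24), and the list's median was 0.05. *Mlxipl*, which encodes ChREBP and had the most counts of the list, stood at 5091 and 5339 (0.52). The mRNA of *Srebf1*, which encodes the SREBP factor of lipogenesis, had 708 and 1171 counts (−0.13).

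Acyl-CoA synthetases activate fatty acids before they are lengthened or desaturated, and 1 of the 7 tested was past 2-fold in each direction. *Acsl1* had 691 counts in KO and 327 in WT (1.67, interval 1.48 to 1.87), and *Acsl5* had 970 and 3442 (−1.23, interval −1.34 to −1.13). *Slc27a2*, with the most counts of the list, had 10194 and 11255 (0.45). The last step of docosahexaenoic acid synthesis is a chain shortening in peroxisomes, and 2 of the 9 genes of that list were at least 2-fold lower (median −0.35). These were *Ehhadh*, a bifunctional enzyme, with 346 and 1532 counts (−1.55), and *Abcd2*, a transporter of very long-chain acyl-CoA, with 37 and 136 (−1.28). *Hsd17b4*, another bifunctional enzyme of the list, had 1052 and 2016 counts (−0.35), inside the 2-fold line. *Scp2*, with the most counts, had 16356 and 16951 (0.54).

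Genes that place acyl chains into phospholipids, triglycerides, ceramides and cholesteryl esters had 15 tested members and a median of −0.13, also when a gene at 0 was taken at 3 counts. The gene past 2-fold lower was *Mboat1*, with 0 and 13 counts, and the one past 2-fold higher was *Lpcat4*, with 32 and 19. Both are named only because they made up the counts. *Cers2*, the ceramide synthase of very long chains and the gene of the list with the most counts, had 3090 and 3786 (0.30). Of the remaining members of the elongase and desaturase families, *Fads6* had 446 and 691 counts (−0.04) and *Fads3* had 29 and 72 (−0.71), while *Elovl4* had no count in either library.

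The markers of other liver cells are read against the 9.94% of all genes that were at least 2-fold lower and the 9.46% that were at least 2-fold higher with TMM, and against 26.6% and 4.60% with total counts. Of the 8 stellate cell markers, 3 were lower with TMM (median −0.70) and 5 with total counts (median −1.30), and their summed level was 22.6 FPKM in KO and 50.9 in WT. *Dcn*, with the most counts of that list, had 504 in KO and 1087 in WT. Of the 8 Kupffer cell and macrophage markers, 2 were lower with TMM (median −0.30) and 3 with total counts (median −0.90), and their summed level was 43.1 and 89.4 FPKM, with *Clec4f* at 600 and 1108 counts. Of the 8 endothelial markers, 1 was lower with TMM (median −0.25) and 3 with total counts (median −0.85), and their summed level was 13.03 and 23.0 FPKM, with *Stab1* at 668 and 734 counts. The median of each of these 3 lists was thus below that of all genes under both scalings. The same held for the hepatocyte markers, with medians of −0.16 with TMM and −0.76 with total counts.

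Of the 5 cholangiocyte markers tested, 2 were higher under both scalings. These were *Krt19*, with 26 counts in KO and 7 in WT, and *Krt7*, with 15 and 6, so both rest on few counts. The median of the cholangiocyte markers turned with the scaling, from 0.40 with TMM to −0.20 with total counts. Their summed level was 25.7 FPKM in KO and 29.7 in WT, most of it from *Spp1*, with 1638 and 1875 counts. None of the 4 neutrophil markers tested was past 2-fold, and their median likewise turned from 0.40 to −0.20 (summed level 35.6 and 48.1 FPKM, *S100a9* at 189 and 256 counts). Of the 8 adipocyte markers, for a cell type in which *Scd1* and *Elovl3* are also expressed, 5 had no count in either library, namely *Adipoq*, *Plin1*, *Lep*, *Retn* and *Ucp1*. Their summed level of 152 FPKM in each library was carried by *Car3* (151 and 152 FPKM, 7461 and 7444 counts), a gene that liver itself also expresses. The part of other cell types in the values of the 10 genes was not tested.

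**Figure D5:**
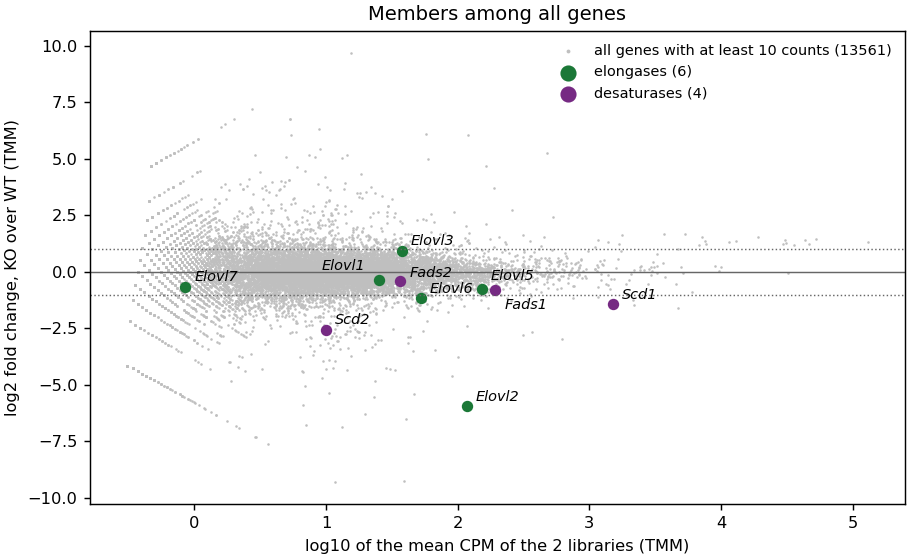
Log2 fold change, KO over WT (TMM), against the log10 of the mean CPM of the 2 libraries, for all 13561 genes with at least 10 counts (grey), with the elongases in green and the desaturases in purple; dotted lines mark 2-fold. Elovl2 lies at −5.94, below nearly all genes of similar abundance, while Elovl1, Elovl3, Elovl5, Elovl7, Fads1 and Fads2 lie within 2-fold.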

How the data were processed

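RNA-seq of 1 miR-182-5p KO and 1 WT liver library was analysed. Raw counts for each gene and the FPKM that the authors derived with total-count scaling were deposited by them. The submitters' processing notes name HISAT2 2.0.4, StringTie, edgeR and the human build hg38, while the gene identifiers are those of mouse; the roles of these tools, the annotation and the use of strand were not given in the sources used here.

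The 10 genes, the gene lists and the rule for named genes were chosen with earlier results of these data known. Genes whose counts summed to 10 or more were kept. Log2 fold changes were computed from TMM-scaled counts (edgeR 4.0.16 in R 4.3.3) with a prior count of 0.5, and a gene was counted as lower or higher past 2-fold, with no test. Intervals are exact 95% binomial (Clopper-Pearson) intervals of the KO share for fold changes and exact Poisson intervals for FPKM, and those of ratios between 2 genes come from the conditional odds ratio of their 4 counts. PCR copies are not independent molecules, so intervals and the floor of 3 counts cover counting error only. Named genes were the 10 members, the genes of the pathway lists past 2-fold with at least 100 counts in the higher library, and the gene with the most counts of each pathway, marker or context list. A few more are named where they made up a count or for their role, chosen after their values were seen. Sequence was read from GENCODE release M21 and RefSeq. Of the 10 loci, 3 have the same start and end in the authors' table and in M21. The authors' KEGG terms were used for 2 further lists. The fold changes and their intervals were tested on simulated Poisson counts drawn with the TMM library sizes. The scaling, the ratios between genes and the sequence steps were not tested in that way. Python 3.11.15 with pandas 2.3.3, numpy 2.4.6, scipy 1.17.1 and matplotlib 3.10.9 was used.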

Additional observations from a re-analysis of the deposited data

How the results depend on the processing

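No paired analysis was possible because the KO and the WT group each consist of 1 library, and no library could be left out. No member changed direction under any alternative run. DESeq2's size factors (DESeq2 1.42.0), the upper quartile, a prior count of 5 and an added exact binomial criterion kept 4 members lower and 0 higher, as did total counts without the 13 mitochondrial genes. Scaling that counts the mitochondrial genes lowered every value. With total counts, 8 members, 23 pathway genes and 3605 of all genes were lower, 0, 1 and 624 were higher, and the medians were −1.37 for the members and −0.89 for the pathway genes. With the authors' FPKM (pseudocount 0.1) the lower counts were 7, 19 and 2934, the higher counts 0, 1 and 405, and the medians −1.37 and −0.84. A minimum of 50 counts left 9 members, 4 of them lower, 4 pathway genes lower (median −0.25) and 766 lower and 642 higher over all genes. With a minimum of 1, for which only the counts over all genes were computed, these were 2752 and 2289. The GENCODE exon lengths, chosen after the data had been seen, moved the share of *Elovl3* in the elongase sum of WT from 15.3% to 8.84%. Over all settings the log2 fold change ran from −6.54 to −5.82 for *Elovl2*, from −3.16 to −2.43 for *Scd2*, from −2.03 to −1.42 for *Scd1*, from −1.77 to −1.16 for *Elovl6* and from 0.34 to 0.95 for *Elovl3*. Depth limits *Elovl7*, and the lack of a second library per genotype limits all values.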

Other observations

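The authors' annotation assigns 19 genes other than the 10 described to the KEGG pathway of fatty acid elongation, which also holds the mitochondrial chain-lengthening enzymes and acyl-CoA thioesterases. Of the 17 with at least 10 counts, 6 were at least 2-fold lower in KO and none higher (35.3% lower, median log2 fold change −0.74), against 9.94% and 9.46% of all genes. With total counts 12 of the 17 were lower, against 26.6%. *Hadhb*, the beta subunit of the mitochondrial trifunctional protein, had 7 counts in KO and 291 in WT (−4.71), while *Hadha*, its alpha subunit, had 583 and 1078 (−0.29). *Echs1*, the mitochondrial enoyl-CoA hydratase, had 247 and 1061 counts (−1.51). The thioesterases *Acot1*, *Acot2* and *Acot3* had 15 and 122, 37 and 119, and 3 and 34 counts. They are close copies of each other, so the assignment of reads among them is uncertain. The sixth gene was *Hacd4*. In the KEGG pathway of unsaturated fatty acid biosynthesis, 4 of 17 tested genes other than the 10 were lower and 1 higher (median −0.37). The 4 lower genes were again *Acot1*, *Acot2*, *Acot3* and *Hacd4*, already counted in the elongation pathway, so they add no separate observation. The higher gene was *Acox3*, a peroxisomal acyl-CoA oxidase, with 199 counts in KO and 16 in WT (4.18). These genes were named after their values were seen.

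Neighbours on the chromosome were taken only among genes with at least 10 counts, so annotated genes with fewer counts can lie between. The nearest such genes on each side of *Elovl2* on chromosome 13 did not share its value. *Smim13*, 29455 bases away, had 55 counts in KO and 65 in WT (0.35). *Tmem14c*, 159920 bases away on the other side, had 384 and 882 (−0.61). Beside *Fads1* (−0.78), in order at higher coordinates, *Fen1* had 66 and 204 counts (−1.03), *Tmem258* 496 and 898 (−0.26) and *Myrf* 151 and 83 (1.45). Beside the *Scd* genes, *Sec31b* had 83 and 73 counts (0.77) and *Bloc1s2* had 107 and 209 (−0.37). These neighbours were also named after their values were seen.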
